A study of Arabidopsis thaliana with 12 samples.

Results

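Photosystem and antenna subunits encoded in the nucleus were represented by 4 genes, which were the members followed here among the 3439 rows of the array table. A row was taken as a member when the platform annotation gave it exactly 1 gene and that gene was PSBY (AT1G67740), PSBW (AT2G30570), PSAN (AT5G64040) or LHB1B2 (AT2G34420). Each gene matched 1 row, and all 4 rows were measured on every array. Total RNA of Arabidopsis thaliana, ecotype Columbia 0, had been hybridised to 12 arrays with 1 value per row, 6 titled stn7stn8, the double mutant of the protein kinase genes STN7 and STN8, and 6 titled WT, the wild type. Apart from the titles, the labels name wild type as the source of all 12 samples, so the genotype of an array rests on its title alone. The sources used here do not give organ, age, light conditions, growth medium or the mutant alleles. The columns of stn7stn8 replicates 4 and 5 were identical to within 4.04e-10 and were counted as 1 array under number 4, so that 5 distinct stn7stn8 arrays were set against 6 WT arrays. Whether replicates came from separate plants is not labelled, so the p-values speak for the spread among arrays, possibly a technical one.

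Photosystem II splits water and photosystem I reduces ferredoxin. Both stand in the thylakoid membrane of the chloroplast, with reaction centres made of plastid-encoded proteins and a set of small subunits and antenna proteins that are encoded in the nucleus and imported. STN7 phosphorylates the light-harvesting antenna during state transitions, in which antenna complexes move between the photosystems, and STN8 phosphorylates core proteins of photosystem II. PSBY is a small membrane-spanning subunit of photosystem II, made in Arabidopsis from a precursor that yields a pair of related proteins. PSBW, another small membrane-spanning subunit, stabilises the supercomplexes of photosystem II with its antenna. LHB1B2, also called LHCB1.5, is one of the LHCB1 proteins, which form trimers in the major antenna of photosystem II and are targets of STN7. PSAN is a subunit of photosystem I on the lumenal side of the membrane, where plastocyanin docks.

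The deposited intensities were linear, and the arrays differed in the spread of their values. The brightest 1% of rows held 27.7% to 29.3% of the summed intensity on the stn7stn8 arrays and 35.7% to 39.0% on the WT arrays. Array medians lay between -1.003 and -0.94 (log2) for stn7stn8 and between -1.65 and -1.36 for WT. Both measures separated the genotypes without overlap, so a difference of genotype and one of array handling cannot be told apart. Values were therefore brought to 1 distribution by quantile normalization before the comparison, and "normalized" below means on that log2 scale. This step removes the difference in distribution whatever its source, which was not tested. In the limma fit over 3229 rows, 766 rows were called higher and 632 lower in stn7stn8 at an adjusted p under 0.05, together 43.3% of the rows tested (23.7% higher, 19.6% lower). The split of the calls moved with the scaling, to 1814 higher and 281 lower on the deposited values (56.2% and 8.70%) and to 631 and 860 for median-centred arrays (19.5% and 26.6%). After cyclic loess it was 716 and 651 (22.2% and 20.2%). Against that background, 1 member rose (PSBY), 1 fell (PSAN) and 2 did not pass (PSBW and LHB1B2). The median log2 fold change of the 4 members was -0.033, beside 0.058 over all tested rows. Their median absolute log2 fold change was 0.51, beside 0.34 over all tested rows. A count of 2 called among 4 members is near the share of all rows called, and it is no result about photosystem genes as a group.

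PSBY rose in stn7stn8. In bulk RNA such as this, a change in the amount per cell and a change in the number of cells of a type cannot be told apart. The normalized log2 intensity of PSBY was 1.92, 1.94, 1.69, 2.17 and 1.998 in stn7stn8 replicates 1, 2, 3, 4 and 6, while the 6 WT arrays ran from 0.57 over a median of 0.86 to 1.12. Every stn7stn8 array lay above every WT array, a separation found in 28.9% of the rows tested. The means were 1.94 ± 0.17 in stn7stn8 (SD, n = 5) and 0.86 ± 0.19 in WT (SD, n = 6). The difference, as a log2 fold change, was 1.09 ± 0.12 (SE; limma adjusted p = 3.4e-05), or 2.13-fold with a 95% confidence interval of 1.78 to 2.53. The increase was larger than that of 98.4% of the tested rows. It was 1.06 on the deposited values and 1.08 after cyclic loess, and with median-centred arrays it was 0.52 and still passed (adjusted p = 0.00590, limma), although the groups then overlapped.

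PSBW did not pass after quantile normalization, and it is the member whose value moved most with the scaling. Its deposited intensity was 18.7, 22.9, 23.5, 26.4 and 26.8 in stn7stn8 replicates 1, 2, 3, 4 and 6, against 36.7 to 51.0 with a median of 43.5 in WT. On this scale the groups did not overlap, as in 46.7% of all rows. PSBW made up 0.654% ± 0.087 of an array's summed intensity in stn7stn8 (SD, n = 5) and 1.21% ± 0.15 in WT (SD, n = 6). The normalized log2 values, 4.85 ± 0.31 in stn7stn8 and 5.17 ± 0.12 in WT, overlapped. Their log2 fold change was -0.33 ± 0.13 (SE, adjusted p = 0.0685, limma), and the 95% confidence interval of the fold ran from 0.649 to 0.977.

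The other scalings all called PSBW lower. The log2 fold change was -0.42 after cyclic loess (adjusted p = 0.0148, limma), -0.90 on the deposited values (adjusted p = 6.9e-05) and -1.44 with arrays centred on their medians (adjusted p = 1.6e-05). PSBW stood at the 99.6 percentile of mean brightness. In the brightest 1% of tested rows, 33 in number, the median log2 fold change was -0.49 on the deposited values, while it was 0.65 in the dimmer 50% of rows. After quantile normalization these medians were 0.072 and 0.067. The plot of fold change against brightness shows PSBW below the median of its own brightness class on both scales. Leaving out stn7stn8 replicate 4 or replicate 6 gave a call, at -0.40 each time (adjusted p = 0.0367 and 0.0379, limma). The lowest array was stn7stn8 replicate 1, at 4.38.

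**Figure D1:**
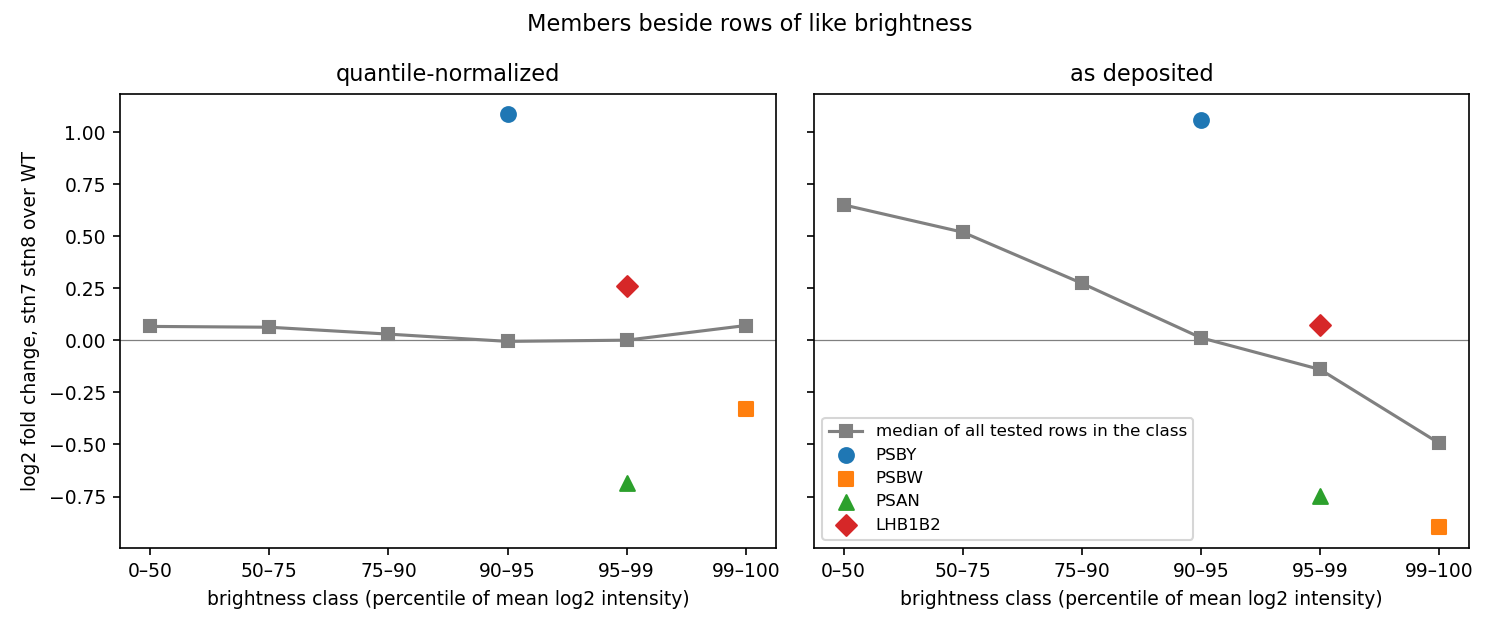
Log2 fold change (stn7 stn8 over WT, vertical axis) by brightness class of the rows (horizontal axis, percentiles of mean log2 intensity over 11 arrays), after quantile normalization on the left and as deposited on the right. Grey squares are medians of all tested rows in a class, and coloured symbols are the 4 members. On the deposited values the class medians fall from 0.65 in the dimmest class to -0.49 in the brightest, with PSBY above and PSBW and PSAN below their classes.

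LHB1B2 had no call in either direction on the normalized values. They were 3.55, 3.65, 3.07, 3.10 and 3.10 in stn7stn8 replicates 1, 2, 3, 4 and 6, against 2.86 to 3.19 with a median of 3.04 in WT. Replicates 1 and 2 of stn7stn8 lay above all WT arrays, and the other 3 fell inside the WT range. The log2 fold change was 0.26 ± 0.13 (SE, adjusted p = 0.118, limma), with a 95% confidence interval of 0.988 to 1.46 for the fold, an interval that holds both no change and a 1.46-fold increase. Without stn7stn8 replicates 1 and 2 the log2 fold change was 0.058. The direction also depended on the scaling. It was 0.072 on the deposited values, 0.36 after cyclic loess, where it was called higher (adjusted p = 0.0327, limma), and -0.47 with arrays centred on their medians, where it was called lower (adjusted p = 0.0268, limma). Near-identical LHCB1 copies may hybridise to the same row, so the value cannot be assigned to LHB1B2 alone. In the annotation, 3 other genes of the photosystem II antenna list occur only in rows that name several genes, and these are not analysed here.

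PSAN fell in stn7stn8. Its normalized log2 intensity was 2.17, 1.79, 1.06, 1.11 and 1.12 in stn7stn8 replicates 1, 2, 3, 4 and 6, against 1.85 to 2.52 with a median of 2.07 in WT. Only replicate 1 of stn7stn8 lay inside the WT range. The means were 1.45 ± 0.50 in stn7stn8 (SD, n = 5) and 2.14 ± 0.29 in WT (SD, n = 6), the widest spread of any member in both groups. The log2 fold change was -0.69 ± 0.22 (SE, adjusted p = 0.0248, limma), or 0.621 of the WT level with a 95% confidence interval of 0.444 to 0.868. With median-centred arrays it was -1.29 (adjusted p = 9.4e-04, limma), and the direction was lower under all 4 scalings. The call was lost without WT replicate 1 or 2 (adjusted p = 0.0527 and 0.0528, limma) and without stn7stn8 replicate 3, 4 or 6 (adjusted p = 0.0617, 0.0605 and 0.0607, limma).

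**Figure D2:**
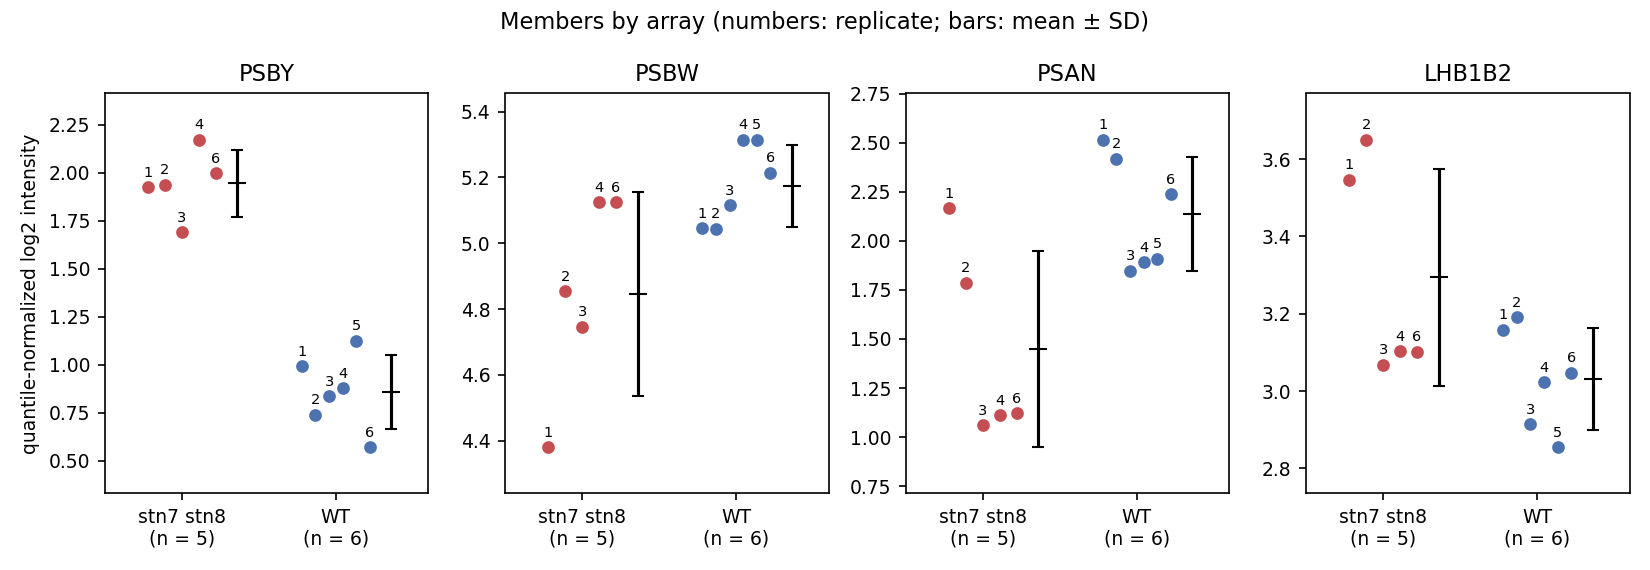
Quantile-normalized log2 intensity (vertical axis) of each member on the 5 distinct stn7 stn8 arrays and the 6 WT arrays. Points are arrays with their replicate numbers, and black bars are mean ± SD. The groups separate for PSBY and overlap for the other 3, and for PSAN and LHB1B2 replicates 1 and 2 are the highest arrays of their genotype.

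The spread within a genotype followed the replicate number for PSAN and LHB1B2. In stn7stn8, PSAN averaged 1.98 in replicates 1 and 2 and 1.098 in the other 3, and in WT it averaged 2.47 in replicates 1 and 2 and 1.97 in the other 4. In both genotypes, replicates 1 and 2 were above all others. The same held for LHB1B2, with 3.60 against 3.09 in stn7stn8 and 3.17 against 2.96 in WT. The means of PSBW ran the other way, with 4.62 against 4.999 in stn7stn8 and 5.04 against 5.24 in WT. In WT both replicates lay below all others, but in stn7stn8 replicate 2 (4.85) lay above replicate 3 (4.75). PSBY was near level at 1.93 against 1.95 in stn7stn8 and 0.87 against 0.85 in WT. The labels do not say what a replicate number stands for.

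Within numbers, PSAN was lower in stn7stn8 in every set. It averaged 1.98 in stn7stn8 and 2.47 in WT for numbers 1 and 2, 1.09 and 1.87 for numbers 3 and 4, and 1.12 (1 array) and 2.07 for numbers 5 and 6, with all stn7stn8 arrays below the WT arrays of their set. The share of all rows that separate in every such set was not determined. Rows that separate over all arrays, 28.9% of those tested, also do so within each set where values are present. With these sets as blocks in the limma fit, an alternative chosen after the values were seen, the log2 fold change of PSAN was -0.72 (adjusted p = 6.2e-04, limma). In that fit LHB1B2 passed as higher at 0.24 (adjusted p = 0.0315, limma), and its stn7stn8 arrays lay above the WT arrays in each set, by 0.42, 0.12 and 0.15. When arrays of a set were instead averaged within each genotype, neither passed (adjusted p = 0.0802 for PSAN and 0.339 for LHB1B2, limma). With only the WT arrays averaged PSAN did not pass either (0.0941), and with consecutive arrays as a random block PSAN passed (0.0363) and LHB1B2 did not (0.194). In the blocked fit PSBW was at -0.30 (adjusted p = 0.0505, limma) and PSBY at 1.09 (adjusted p = 1.3e-04, limma). Over all rows the blocked fit called 881 higher and 696 lower.

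**Figure D3:**
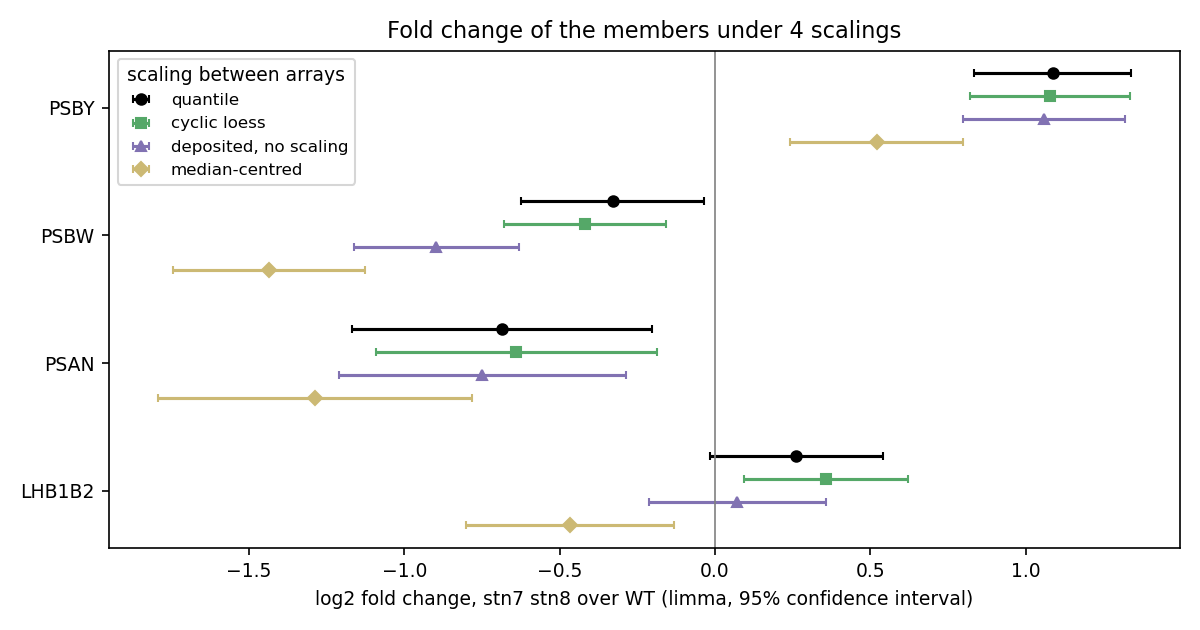
Log2 fold change of stn7 stn8 over WT (horizontal axis) for the 4 members under 4 scalings between arrays, with symbols for limma estimates and bars for their 95% confidence intervals. PSBY stays above 0 and PSAN and PSBW below 0 under each scaling, while LHB1B2 ranges from -0.47 to 0.36.

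Ratios between members within an array do not change when all values of that array are multiplied by a common factor, so they were taken on the deposited values. Their absolute size also reflects the probes and is not a ratio of transcript amounts, and only its difference between genotypes was compared. All 6 pairs were tested by exact two-sided permutation over the 462 splits of 11 arrays, with Benjamini-Hochberg adjustment over the 6 ratios. The ratios rest on the same values as the fold changes and add no independent evidence.

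PSBY gained on each other member. The intensity of PSBY was 0.131 to 0.196 of that of PSBW in stn7stn8, against 0.0276 to 0.0533 in WT, a 3.88-fold difference (log2 difference 1.96 ± 0.17, SE; exact permutation p = 0.00216, adjusted 0.00260). This p is the smallest that 462 splits allow, and it was reached by 5 of the 6 ratios. How many other pairs of rows reach it was not determined. On the deposited values 46.7% of single rows already separate, so the count of ratios is no result about these subunits. PSBY over PSAN was 0.844, 1.11, 1.44, 1.87 and 1.74 in stn7stn8 replicates 1, 2, 3, 4 and 6, against 0.280 to 0.529 in WT, a 3.50-fold difference. PSBY over LHB1B2 was 1.98-fold higher in stn7stn8 (log2 difference 0.99 ± 0.18, SE).

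LHB1B2 gained on both PSBW and PSAN. Its ratio to PSBW was 0.3002 to 0.597 in stn7stn8 and 0.170 to 0.266 in WT, a 1.96-fold difference, and its ratio to PSAN was 2.57 to 3.75 in stn7stn8 and 1.66 to 2.21 in WT, a 1.77-fold difference (log2 difference 0.82 ± 0.12, SE). On the deposited values the groups did not overlap in either ratio, with no share of other pairs of rows to set this against. The ratio to PSAN had the smallest SE of the 6. PSAN and LHB1B2 had both been high on replicates 1 and 2 of each genotype.

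PSAN and PSBW did not differ in ratio beyond the spread. PSAN over PSBW was 0.0821 to 0.233 in stn7stn8 and 0.0820 to 0.160 in WT, with a log2 difference of 0.15 ± 0.32 (SE; exact permutation p = 0.652), an error that leaves room for a change in either direction. Rows of different brightness moved apart between the genotypes on the deposited scale, by the class medians given above, and the ratios hold that shift. On the quantile-normalized values the log2 difference was 1.42 for PSBY over PSBW and 0.59 for LHB1B2 over PSBW, which passed (adjusted p = 0.00433 and 0.0286, exact permutation). The groups overlapped there for LHB1B2 over PSBW. For PSAN over PSBW the log2 difference turned to -0.36 (adjusted p = 0.335, exact permutation).

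**Figure D4:**
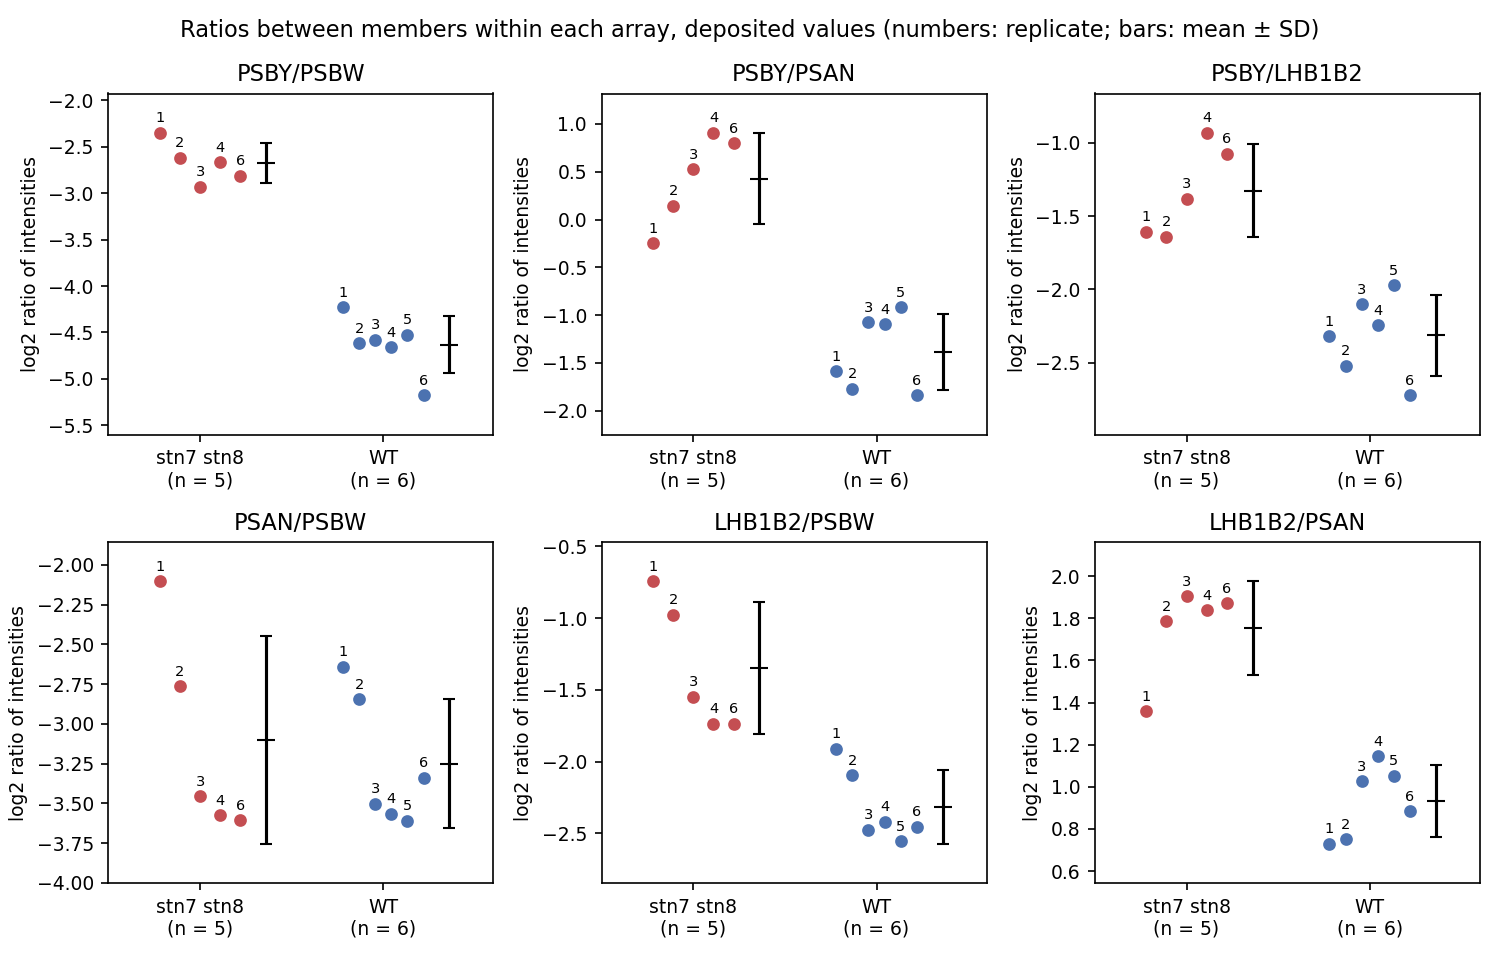
Log2 ratio of the deposited intensities (vertical axis) for the 6 pairs of members on each array, stn7 stn8 left and WT right in each panel. Points are arrays with their replicate numbers, and bars are mean ± SD. The genotypes separate in 5 panels and overlap for PSAN/PSBW, where replicates 1 and 2 are highest in both genotypes. The share of other pairs of rows that separate was not determined.

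Brightness ranks within an array, which no monotone scaling can alter, separated the genotypes for PSBY alone among the 4 members. The ranks and the percentiles below rest on the same values as the fold changes and add no independent evidence. All 4 members were bright rows, and a rank also reflects the probe, so it is not an order of transcript abundance between genes. PSBY stood at ranks 102 to 152 of the rows above 0 in stn7stn8, against 235 to 360 in WT, without overlap. On the normalized values, which keep the order of rows within an array, 28.9% of the rows tested separated. PSBW stood at ranks 19, 14, 15, 11 and 11 in stn7stn8 replicates 1, 2, 3, 4 and 6, against 9 to 12 in WT. PSAN stood at ranks 101, 140, 247, 240 and 238 in those stn7stn8 arrays, against 76 to 133 in WT. LHB1B2 stood at ranks 29 to 47 in stn7stn8 and 43 to 58 in WT.

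As percentiles of the rows above 0, PSBY was at 96.2 ± 0.56 in stn7stn8 and 91.1 ± 1.33 in WT (SD, n = 5 and 6; exact permutation p = 0.00216, adjusted 0.00866 over the 4 rank tests). For PSAN the percentiles were 94.1 ± 2.06 in stn7stn8 and 96.8 ± 0.77 in WT (exact permutation p = 0.0238, adjusted 0.0476), a call that was lost in 9 of 11 cases when a single array was left out (adjusted p up to 0.103). PSBW, at 99.60 ± 0.10 in stn7stn8 and 99.71 ± 0.043 in WT, did not pass after adjustment (exact permutation p = 0.0433, adjusted 0.0577), nor did LHB1B2 (exact permutation p = 0.0671). On the 6 WT arrays the order by brightness was PSBW, LHB1B2, PSAN and PSBY. On 4 of the 5 stn7stn8 arrays PSBY was brighter than PSAN, and replicate 1 kept the WT order.

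**Figure D5:**
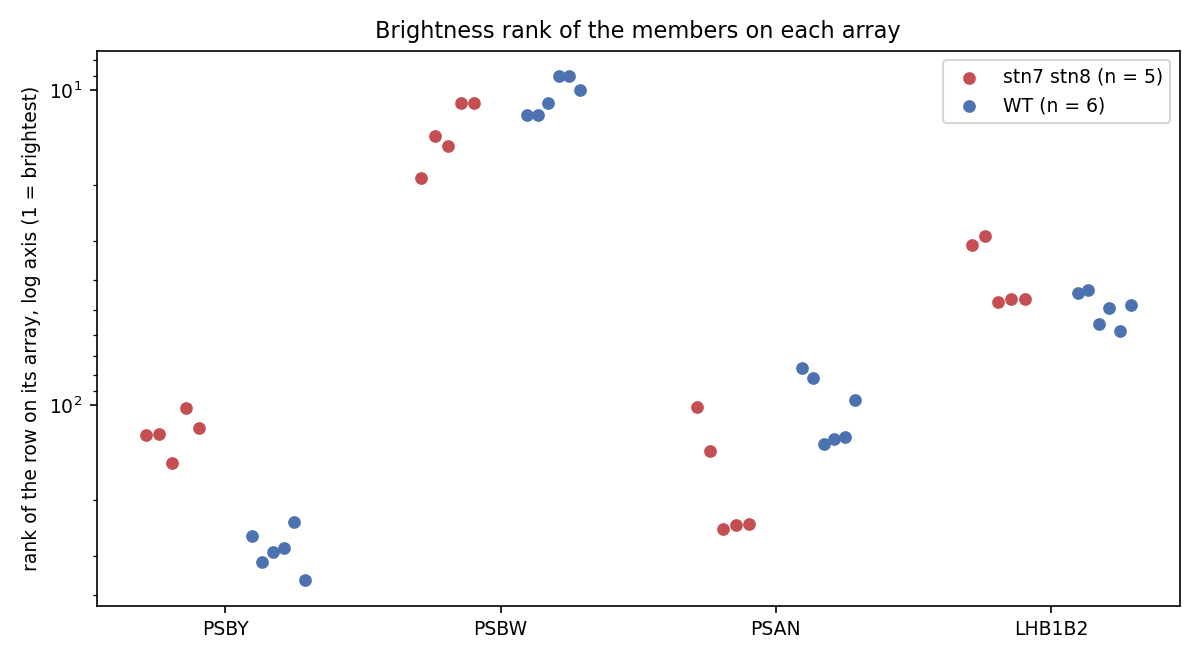
Rank of each member among the rows above 0 on its array (vertical axis, log scale, 1 is the brightest), with stn7 stn8 arrays left of WT arrays for each gene. PSBY ranks 102 to 152 in stn7 stn8 and 235 to 360 in WT, and PSBW stays among the 19 brightest rows on all arrays.

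Of 87 genes in 8 lists of thylakoid and tissue marker genes, 7 had a row of their own, and all were tested. Of these 7, 1 rose, 3 fell and 3 did not pass, where 23.7% of all tested rows were called higher and 19.6% lower, so the count says nothing about the lists. The photosystem II list of 22 genes held 4 of them, PSBY and PSBW as above and 2 related assembly factors of photosystem II. These were PSB27, whose log2 fold change was -0.58 ± 0.13 (SE, adjusted p = 0.00463, limma), and LPA19, with -0.44 ± 0.14 (SE, adjusted p = 0.0247, limma; 0.022 and not called on the deposited values). Both lay below the WT range on all stn7stn8 arrays after normalization, where 28.9% of the rows tested separated. On the deposited values the groups overlapped for both, and PSB27 was called lower at -0.46 (adjusted p = 0.0146, limma). Both calls were lost with consecutive arrays averaged in both groups (adjusted p = 0.0560 and 0.0994, limma). That of LPA19 was also lost with only WT arrays averaged (0.0591), without stn7stn8 replicate 1 (0.0564) and without stn7stn8 replicates 1 and 2 (0.0822). NDHN, a subunit of the chloroplast NADH dehydrogenase-like complex, did not pass at 0.24 ± 0.096 (SE, adjusted p = 0.0588, limma), but it passed at 0.74 on the deposited values (2.9e-04). PSAN was the only one of 12 photosystem I genes and LHB1B2 the only one of 14 photosystem II antenna genes with a row of their own. The photosystem I antenna, the electron carriers, the thylakoid kinases and phosphatases (with STN7 and STN8 themselves) and the markers of non-green or reproductive tissue had 0 such rows. The genotype and the tissue could thus not be checked from these genes.

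Rows with 1 gene whose normalized values most resembled a member's over the 11 arrays were listed among 624 candidates, as a description. For PSBY these were AT4G35660 (r = 0.973), AT4G18180 (r = 0.961) and CHLM, a methyltransferase of chlorophyll synthesis (r = 0.960). With the genotype means removed, the r of these 3 was 0.62, 0.41 and 0.76. For PSAN they were AT4G31530 (r = 0.917), AT1G51550 (r = 0.903) and THIC, an enzyme of thiamin synthesis in the plastid (r = 0.888), and with genotype means removed r was 0.85, 0.82 and 0.86. For LHB1B2 they were AT4G08630 (r = 0.903), AT5G65490 (r = 0.900) and AT2G43760 (r = 0.883), with 0.89, 0.87 and 0.87 once genotype means were removed. For PSBW they were AT1G51350 (r = 0.905), AT1G61590 (r = 0.862) and AT4G33500 (r = 0.861), with 0.84, 0.76 and 0.76 once genotype means were removed. These r come from the same arrays, share their scaling and their replicate numbers, and were chosen as the highest.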

How the data were processed

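The deposited table held array intensities on a linear scale for 12 arrays, and per the labels the authors state no scaling or background correction. The sums of the arrays were close all the same, and a scaling before deposit was not tested. Genotype and replicate number were taken from the titles. The platform annotation left 1877 of 3439 rows without a gene, gave 870 rows several and 692 rows 1 gene, and 690 of these were found in the RefSeq table of TAIR10.1.

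Zeros were treated as missing, the other intensities were transformed to log2 and quantile-normalized, and rows with 4 or more values in each group entered a two-sided limma test (version 3.58.1, R 4.3.3, functions lmFit and eBayes). Benjamini-Hochberg adjustment ran over all 3229 tested rows, with a threshold of 0.05. Ratios and ranks were compared by exact permutation in Python 3.11.15. Named genes were the 4 members, all genes of the lists with a row of their own, and the 3 most similar rows per member. Members, lists, tests and alternatives were chosen with earlier results of these data known. The number of arrays limits the precision.

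Tested on simulated data for stn7stn8 against WT with 3229 rows, the fit recovered 6% of the rows changed by 0.3 (log2), 54% at 0.6, 76% at 1 and 96% at 2, each of 50 rows, and 4.92% of its calls were false. The simulated noise was independent between arrays, while deviations of WT replicates 1 and 2, 3 and 4, and 5 and 6 correlated with r = 0.40, 0.35 and 0.59. Far fewer rows were changed than the 43.3% called in the data, and the simulated arrays did not differ in spread between genotypes. The simulated rates may therefore not hold for these data.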

Additional observations from a re-analysis of the deposited data

Results flagged for a closer look

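In 34 groups of values, of the members, their ratios and ranks and the other listed genes, 1 array lay far from the rest of its group. Chance gives about 1 in 20 groups, so 1 flag is no more than chance would give, and the groups share values. In stn7stn8, the log2 ratio of LHB1B2 to PSAN was 1.36 in replicate 1 and between 1.79 and 1.91 in the other 4 arrays. It was between 0.73 and 1.15 in WT.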

How the results depend on the processing

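PSBY kept its call in all 29 alternatives, with log2 fold changes from 0.52 to 1.17. For PSAN the call held in 21 of 29. It was lost at -0.69 with consecutive WT arrays averaged, at -0.74 with consecutive arrays averaged in both groups and at -0.69 against a threshold of 0.01, and single arrays left out gave -0.88 to -0.60. PSBW was called at -0.90 on the deposited values, -1.44 with medians centred and -0.42 after cyclic loess, and single arrays left out gave -0.40 to -0.21. LHB1B2 was called at -0.47 with medians centred, 0.36 after cyclic loess and 0.24 with consecutive numbers as blocks across genotypes. LPA19 was at 0.022 on the deposited values. The counts of rows moved to 1814 higher and 281 lower on the deposited values, and to 487 higher with consecutive arrays averaged in both groups and 507 higher at the threshold of 0.01. PSAN over PSBW turned to -0.36 after quantile normalization and -0.22 after cyclic loess, and single arrays left out gave -0.10 to 0.28. The cause of these changes was not tested. In percentile rank, PSBW passed at -0.111 over rows above 0 on every array and at -0.106 with numbers as blocks, and single arrays left out gave -0.130 to -0.0671. PSAN gave -3.32 to -2.20 with single arrays left out and missed the threshold in 9 of 11. LHB1B2 passed at 0.304 with numbers as blocks.

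Same-numbered arrays share only a number in the labels, and their deviations correlated with r = 0.19, 0.17, 0.23, 0.0094 and 0.13 for numbers 1, 2, 3, 4 and 6. For numbers 1, 2, 3 and 6 the same-numbered array had the highest r of all stn7stn8 arrays with that WT array. For number 4 it did not. With the identical array taken as number 5, its r with WT replicate 5 was 0.091, the highest of the stn7stn8 arrays with that WT array. The paired and blocked tests took it as number 4, and number 5 was not tested there. With the replicate block, limma called 796 rows higher and 629 lower and changed no call of a member's fold change. The paired exact test of 5 pairs cannot go below p = 0.0625, so the ratios missed the threshold there at 1.98 (PSBY/PSBW), 1.90 (PSBY/PSAN), 1.06 (PSBY/LHB1B2), 0.92 (LHB1B2/PSBW) and 0.84 (LHB1B2/PSAN), as did the percentile ranks of PSBY at 5.49 and PSAN at -2.74.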
